A study of Mus musculus with 13 samples.

Results

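Type 17 genes were followed across 5 groups of sorted mouse T cells. The genes are the cytokines *Il17a*, *Il17f* and *Il22*, the receptors *Il23r*, *Il1r1* and *Ccr6*, the nuclear receptor *Rora*, and *Blk* and *Cd163l1*, which are found in T cells that carry a γδ receptor. They were chosen by name, and all 9 are present among the 24417 named genes of both count tables. 7 of the 9 had enough counts to be tested in the male libraries, where *Il17f* and *Il22* did not, and all 9 could be tested in the female libraries.

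The *Foxp3*LSL allele carries a Thy1.1 reporter and a STOP cassette in front of *Foxp3*, so that cells which switch the locus on make Thy1.1 in place of Foxp3 and are called Treg “wannabes”. In the male experiment, 3 control Treg libraries came from healthy *Foxp3*DTR-GFP/y *Cd4*creERT2 mice, 3 rescued Treg libraries from diseased *Foxp3*LSL/y *Cd4*creERT2 mice, and 2 “wannabe” libraries from *Foxp3*LSL/y *Cd4*wt mice, which have no Cre and stay diseased. All of these males received 4-hydroxytamoxifen on postnatal day 14, which activates the Cre that is driven from the *Cd4* locus and removes the cassette, and were analyzed on day 21. In the female experiment, all mice were *Cd4*wt, carried 1 *Foxp3*LSL allele and received diphtheria toxin 7, 5, 3 and 1 days before analysis, at 9 to 11 weeks of age by the labels. 3 resting “wannabe” libraries came from *Foxp3*LSL/WT females, whose wild-type Treg cells the toxin spares, and 2 activated “wannabe” libraries from *Foxp3*LSL/DTR females, whose Treg cells carry the toxin's receptor and are killed. The series' design text gives these 2 numbers of libraries the other way round, and the labels of the libraries and the study's methods were followed. Strain was C57BL/6 throughout, and cells were sorted in 2 rounds as TCRβ+ CD4+ CD8- NK1.1- from pooled spleen and lymph nodes. Within this gate, Treg cells were taken as Foxp3+ Thy1.1- and “wannabes” as Thy1.1+ Foxp3-. Small amounts of RNA were amplified by a template-switching kit (SMART-Seq v4) before libraries were made. “Wannabes” cannot make Foxp3 from the LSL allele, and no group was sorted as a type 17 population.

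Type 17 lymphocytes are the T cells and innate lymphoid cells that make IL-17A, IL-17F and IL-22, typically at skin and mucosal barriers. IL-23, IL-1 and IL-6 drive or maintain the program through their receptors and STAT3, and CCR6 guides the cells toward its ligand CCL20. Among CD4 T cells these genes mark Th17 cells and a subset of Treg cells, and outside them they are prominent in γδ T cells and group 3 innate lymphoid cells. RORα, the product of *Rora*, and other nuclear receptors bind the hexamer AGGTCA.

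The promoters are shown because they differ in this hexamer. RefSeq promoter sequences on GRCm38.p6 were matched for 8 of the 9 genes, all but *Blk*, with 2 starts each for *Il1r1* and *Ccr6*. In the 250 bases before the start, AGGTCA or its reverse complement TGACCT, in capitals here, was present for *Il17a*, *Il17f*, *Il23r* and the upstream start of *Ccr6*. It was absent from the windows of *Il1r1*, *Il22*, *Rora* and *Cd163l1*. The *Il17a* window is chr1:20730655-20730904 on the plus strand, the *Il23r* window chr6:67491856-67492105 on the minus strand and the *Ccr6* window chr17:8235793-8236042 on the plus strand. The annotation has no exon in these 3. For *Il17f*, whose window overlaps an exon of a longer *Il17f* transcript, 26 bases around the match are given, chr1:20784313-20784338 on the minus strand.
Il17a: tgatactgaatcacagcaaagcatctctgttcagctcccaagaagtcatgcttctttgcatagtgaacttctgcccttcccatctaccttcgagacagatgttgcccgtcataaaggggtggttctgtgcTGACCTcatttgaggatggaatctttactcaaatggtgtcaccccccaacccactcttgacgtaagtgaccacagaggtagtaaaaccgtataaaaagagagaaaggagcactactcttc
Il23r: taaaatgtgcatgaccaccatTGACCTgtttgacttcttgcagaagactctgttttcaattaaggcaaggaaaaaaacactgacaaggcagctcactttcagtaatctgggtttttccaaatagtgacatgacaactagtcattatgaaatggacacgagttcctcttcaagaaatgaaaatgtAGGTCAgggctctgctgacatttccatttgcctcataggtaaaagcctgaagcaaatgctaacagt
Ccr6: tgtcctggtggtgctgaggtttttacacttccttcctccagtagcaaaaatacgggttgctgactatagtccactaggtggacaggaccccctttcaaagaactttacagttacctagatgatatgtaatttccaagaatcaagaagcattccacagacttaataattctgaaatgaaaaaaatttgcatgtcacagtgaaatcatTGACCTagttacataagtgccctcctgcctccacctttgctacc
Il17f: gtcagtaaggAGGTCAgtggaaacag
The match lies 120 bases before the start of *Il17a*, 58 before *Il17f*, 229 and 66 before *Il23r* and 44 before *Ccr6*, counted to its first base as printed. Of 32851 RefSeq promoters of the same length, 14% hold AGGTCA on either strand. With 1 more base, TAGGTCA matched at *Il23r* and *Ccr6* and in 2.23% of all promoters, and each of these matches overlaps the hexamer. TATAAA, also searched on both strands, lies 31 bases before *Il17a*, 29 before *Il17f* and 170 before *Il22*, and 12.4% of promoters hold it. The AP-1 motif TGANTCA matched at *Il17a* (6.75% of promoters) and the STAT motif TTCNNNGAA at the upstream start of *Ccr6* (7.02%), on either strand. A match describes the letters of the window and says nothing of binding.

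In GENCODE on GRCm38, *Il17a* (chr1:20730905-20734496) and *Il17f* (chr1:20777146-20790617) are neighbours on opposite strands, and *Il1r1* (chr1:40225080-40317257) lies on the same chromosome. *Il22* is at chr10:118204942-118210047, *Il23r* at chr6:67422932-67491855, *Ccr6* at chr17:8236043-8257141 and *Rora* at chr9:68653786-69388246. *Blk* is at chr14:63372836-63417037 and *Cd163l1* at chr7:140218267-140231145. All 9 are protein-coding, and their counts are per whole gene.

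Depth and labels were checked first. Between 25556783 and 36659638 reads were counted on named genes per library, so that a floor of 3 counts corresponds to between 0.0818 and 0.117 CPM, which is the count scaled to a common library total. Normalized counts below are counts scaled by TMM library size within an experiment, and levels are not compared between the male and the female experiment. *Foxp3* had at least 28381 normalized counts in each rescued Treg library, between 5479 and 8264 in control Treg and between 2762 and 3273 in “wannabe” libraries. *Thy1*, an allele of which lies in the cassette, had at least 6430 normalized counts in “wannabe” and at most 1531 in Treg libraries. In the female libraries neither transcript checks the labels, since both groups carry *Foxp3*LSL. *Foxp3* was between 1999 and 2230 normalized counts in resting and 1568 and 1728 in activated libraries, a small difference that passed (log2 fold change -0.35, edgeR adjusted p = 0.0448).

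Most calls on type 17 genes came from the comparison of activated with resting “wannabes”. The comparison asks how “wannabe” cells of mice that lost their Treg cells differ from those of mice that kept them. 8 of the 9 genes were lower in activated “wannabes” at an adjusted p under 0.05 (edgeR's quasi-likelihood test, Benjamini-Hochberg adjustment over 13166 genes), and none was higher. In the same comparison 11.2% of all genes tested were lower and 11.3% higher. The median log2 fold change was -3.98 over the 9 genes and -0.01 over all genes tested. *Rora* alone did not pass.

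*Il17a*, the cytokine that draws neutrophils to tissue, had 3457, 4263 and 1594 normalized counts in the resting libraries (replicates 1, 2 and 3) and 37.8 and 62.1 in the activated ones. The lowest resting library was 25.7 times the highest activated one. The log2 fold change was -5.96 (SE 0.55, edgeR adjusted p = 0.00113), a 62.1-fold lower level. *Il17f*, whose product pairs with IL-17A, had 3576, 3778 and 1982 normalized counts in resting libraries and 75.6 and 115 in activated ones. Here too the groups were far apart, with a log2 fold change of -5.03 (SE 0.38, edgeR adjusted p = 0.000644). *Il22*, whose product acts on epithelial cells, was present at 34.7, 49.9 and 39.5 normalized counts in resting and 15.1 and 5.73 in activated libraries. The groups did not overlap, but counts were low (log2 fold change -1.98, SE 0.55, edgeR adjusted p = 0.0461), and this call was lost with any single library left out. *Il22* has a near-identical copy, *Iltifb*, at 97.3% identity over 1111 aligned bases, so reads may have been split between them; *Iltifb* had 75.5 ± 17.1 (SD, n = 3) and 23.2 ± 13.9 (SD, n = 2) normalized counts.

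**Figure D1:**
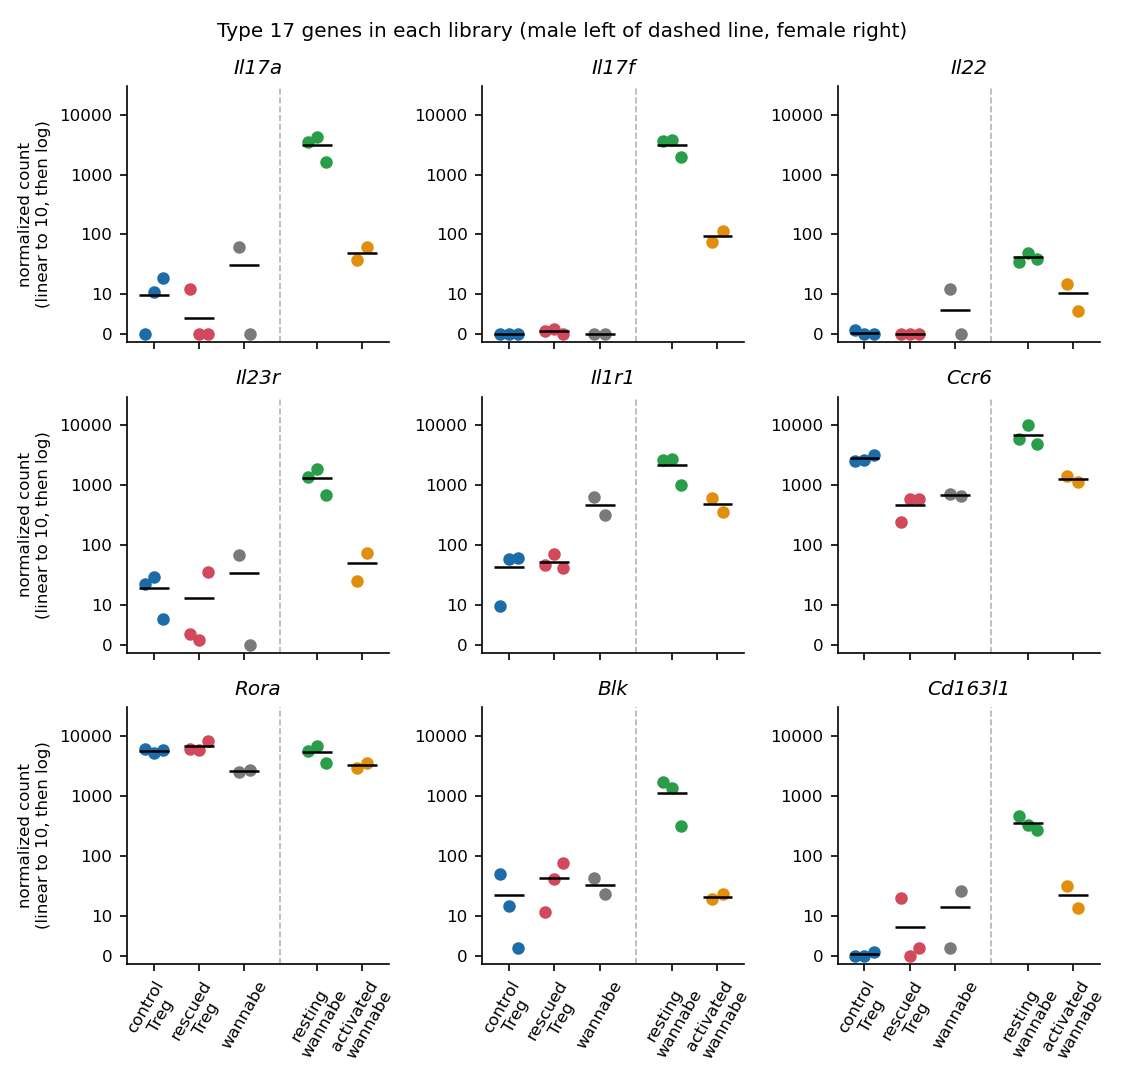
Normalized count of each type 17 gene (y axis, linear to 10 and logarithmic above) in the 3 control Treg, 3 rescued Treg and 2 “wannabe” libraries of male mice and the 3 resting and 2 activated “wannabe” libraries of female mice. Points are libraries and horizontal lines are group means; *Il17a* sits between 1594 and 4263 in resting and between 37.8 and 62.1 in activated “wannabes”, while *Ccr6* and *Rora* are well above 0 in every library.

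Of the receptors, *Il23r*, the subunit specific to IL-23, had 1380.0, 1834 and 679 normalized counts in resting and 25.5 and 74.5 in activated libraries. Its log2 fold change was -4.70 (SE 0.61, edgeR adjusted p = 0.00378), and the lowest resting library was 9.13 times the highest activated one. *Il1r1*, the signalling receptor for IL-1, was closer between groups. It had 2644, 2764 and 999.5 normalized counts in resting and 615 and 352 in activated libraries, a log2 fold change of -2.14 (SE 0.49, edgeR adjusted p = 0.0252). *Ccr6* had 5952, 10208 and 4836 normalized counts in resting and 1404 and 1139 in activated libraries. It was lower in both activated libraries than in any resting one (log2 fold change -2.46, SE 0.34, edgeR adjusted p = 0.0044). *Rora*, which is also expressed by many other T cells, had 5673, 6798 and 3501 normalized counts in resting and 2909 and 3547 in activated libraries. The groups overlapped, since resting replicate 3 lay below activated replicate 2 (log2 fold change -0.72, SE 0.27, edgeR unadjusted p = 0.0328, adjusted p = 0.0996). Without resting replicate 3 the adjusted p was 0.00845.

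*Blk*, a Src-family kinase of B cells that IL-17-producing γδ T cells also express, had 1676, 1373 and 318 normalized counts in resting and 18.9 and 22.9 in activated libraries. It was 53.4-fold lower in activated cells (log2 fold change -5.74, SE 0.86, edgeR adjusted p = 0.00629), and its resting values spread 5.27-fold. *Cd163l1*, which encodes a scavenger receptor of γδ T cells, had 469, 325 and 268 normalized counts in resting and 31.2 and 13.4 in activated libraries. The log2 fold change was -3.98 (SE 0.44, edgeR adjusted p = 0.00212). Its paralog and neighbour *5830411N06Rik*, 73.8% identical over 2291 aligned bases, had 8964, 11607 and 3794 normalized counts in resting and 352 and 612 in activated libraries, so a small share of its reads could weigh on the lower counts of *Cd163l1*. With 1 activated library left out, *Blk* and *Il1r1* lost their calls whichever library it was (*Blk* adjusted p = 0.073 without replicate 1 and 0.0684 without replicate 2), and *Ccr6* lost its call without replicate 2 (adjusted p = 0.0543). *Il1r1* had an adjusted p of 0.0935 and 0.169 in these fits, and it also missed the threshold without resting replicate 2 (edgeR adjusted p = 0.0502). *Il17a*, *Il17f*, *Il23r* and *Cd163l1* passed in all 5 fits that left out 1 library. The size moved most for *Il23r* (log2 fold change -5.67 without activated replicate 2), *Cd163l1* (-4.72 without activated replicate 1) and *Il22* (-2.83 without activated replicate 1).

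The 3 resting libraries were not alike. Replicate 3 had the lowest normalized count for 8 of the 9 genes, all but *Il22*, and replicate 2 the highest for 7. Replicate 2 was 2.67 times replicate 3 for *Il17a*, 4.32 times for *Blk*, 2.77 times for *Il1r1* and 1.91 times for *Il17f*. For *Cd4* the highest resting library was 1.08 times the lowest, for *Cd3e* 1.08 times and for *Foxp3* 1.12 times. The same ratio of highest to lowest was between 1.44 (*Il22*) and 5.27 (*Blk*) over the 9 genes. Without replicate 3, 8 genes were still called, with *Rora* in place of *Il22*. In bulk RNA, fewer cells of a type and less RNA per cell cannot be told apart.

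**Figure D2:**
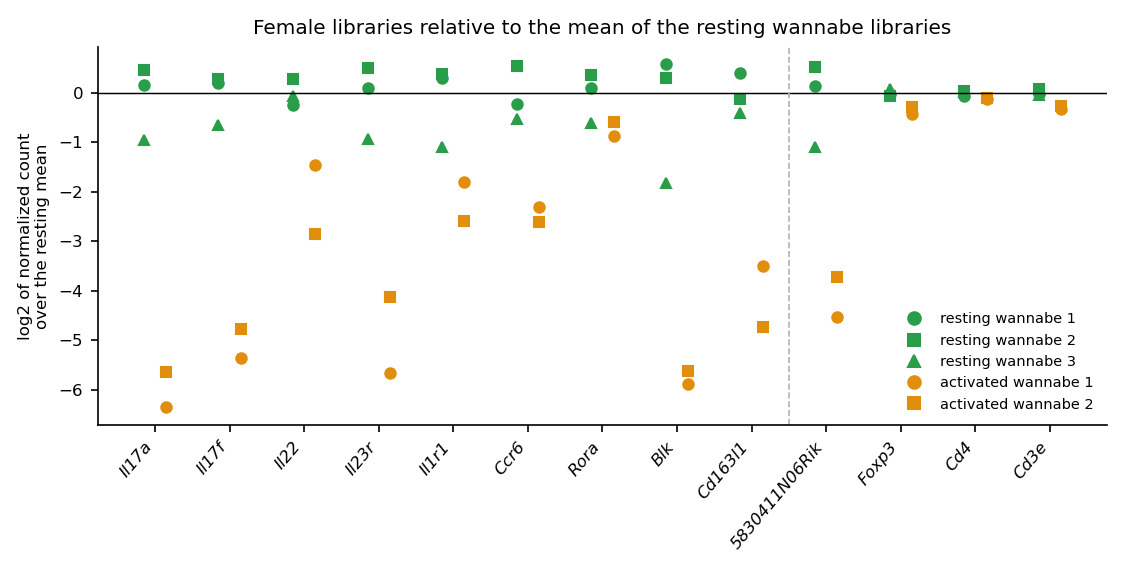
Log2 of the normalized count over the mean of the 3 resting “wannabe” libraries (y axis) for the 9 type 17 genes, left of the dashed line, and *5830411N06Rik*, *Foxp3*, *Cd4* and *Cd3e*. Each point is 1 female library; resting replicate 3 (triangles) lies below the other resting libraries for 8 of the 9 type 17 genes, and *Cd4* and *Cd3e* stay near 0 in all libraries.

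Levels per length, in CPM per kilobase of exon, give the order of the genes in resting “wannabes”. *Ccr6* was highest at 102 ± 41.2 (SD, n = 3), followed by *Il17a* at 89.3 ± 39.4, *Il17f* at 51.9 ± 16.4, *Il23r* at 17.6 ± 7.87, *Blk* at 14.0 ± 8.90, *Rora* at 13.7 ± 4.32, *Il1r1* at 11.3 ± 5.22, *Cd163l1* at 3.10 ± 0.907 and *Il22* at 1.26 ± 0.236 CPM per kilobase. The libraries of *Ccr6* and *Il17a* overlapped, as did those of *Il17a* and *Il17f*, and the 4 genes from *Il23r* to *Il1r1* overlapped with their neighbours. Libraries did not overlap at the steps from *Il17f* to *Il23r*, from *Il1r1* to *Cd163l1* and from *Cd163l1* to *Il22*. In activated “wannabes” *Ccr6* (18.5 ± 2.73, SD, n = 2) and *Rora* (8.32 ± 1.16) led, and the means of the other 7 genes lay at or under 2.56 CPM per kilobase. *Il1r1* and *Il17f* overlapped there, as did *Il17f* and *Il17a*, and so did the 4 lowest genes with their neighbours.

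Within the resting libraries some genes kept a nearly fixed proportion to *Il17a* per length. *Il23r* was at 0.188, 0.202 and 0.201 times *Il17a*, and *5830411N06Rik* at 0.549, 0.576 and 0.504 times. *Blk* was at 0.210, 0.140 and 0.0866 times, so it moved apart from *Il17a* among resting mice. In activated libraries *5830411N06Rik* was at 1.97 and 2.09 times *Il17a* and *Il23r* at 0.318 and 0.565 times, outside the resting values. *Blk* was at 0.217 and 0.160 times there, near its resting values. *Cd163l1* was at 0.0413, 0.0232 and 0.0511 times in resting and 0.251 and 0.0655 times in activated libraries, both outside the resting values.

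Markers of γδ T cells moved with the type 17 genes. Of the 16 names listed for γδ T cells, 4 are in the tables used here, *Blk*, *Cd163l1*, *5830411N06Rik* and *Sox13*. No listed γδ receptor gene is among them, so RNA of these receptors could not be read. The summed level of the 4 markers was between 148 and 449 CPM in resting and between 13.5 and 21.8 CPM in activated “wannabes”. Without *Blk* and *Cd163l1* it was between 128 and 391 CPM in resting and between 11.8 and 20.6 CPM in activated libraries, nearly all of it *5830411N06Rik* (log2 fold change -4.08, SE 0.55, edgeR adjusted p = 0.00413). *Sox13*, a transcription factor of IL-17-producing γδ T cells, had 0, 12 and 9 counts in the resting libraries and 0 in both activated ones. The sort for the αβ receptor would leave γδ T cells out, and the part of such cells in the values of the type 17 genes was not tested.

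Markers of other cell types were mixed in level and direction. The 6 B cell markers other than *Blk* summed to between 10.2 and 12.3 CPM in resting and between 22.6 and 24.8 CPM in activated libraries, lower where *Blk* was higher. *Ms4a1*, which encodes CD20, went with *Blk*, at 12, 8 and 5 counts in resting and 1 and 4 in activated libraries. The 4 listed markers of invariant NKT, MAIT or innate-like T cells, of 8 in that list, summed to between 2.38 and 3.50 CPM in resting and between 2.29 and 3.76 CPM in activated libraries, with *Klrb1b* at 0 in all 5. Most of that sum was *Klrb1c*. *Zbtb16*, which encodes PLZF, the transcription factor of innate-like T cells, moved with the type 17 genes, at 35, 27 and 26 counts in resting and 4 and 13 in activated libraries, without overlap and without passing (log2 fold change -1.90, SE 0.62, edgeR adjusted p = 0.0732). NK cell markers summed to between 2.76 and 5.46 against between 3.57 and 5.82 CPM, CD8 T cell markers to between 9.72 and 13.9 against between 14.2 and 15.9 CPM, and myeloid markers to between 0.638 and 2.64 against between 2.06 and 4.65 CPM. *Klra8* was at 0 in all 5 female libraries. The 5 markers of group 3 innate lymphoid cells that are not among the 9 genes summed to less in resting libraries, between 373 and 418 CPM, than in activated ones, between 869 and 879 CPM, and *Ncr1* was at 0 in the resting libraries. *Gata3* and *Nrp1*, which CD4 T cells and Treg cells also express, made up most of this sum and were called higher in activated libraries (log2 fold changes 1.16 and 1.48). *Kit*, a growth factor receptor in the same list, went the other way, with 1642, 1291 and 705.5 normalized counts in resting and 705.0 and 539 in activated libraries. The groups nearly touched and the difference did not pass (log2 fold change -0.96, SE 0.35, edgeR adjusted p = 0.0918). Markers of αβ CD4 T cells, 5 of 8 listed, summed to between 3464 and 3758 CPM in resting and between 3264 and 3358 CPM in activated libraries, and of the 5 only *Cd3e* was called, lower in activated libraries (log2 fold change -0.29, edgeR adjusted p = 0.032). The 5 Treg cell markers summed to between 1484 and 1679 CPM in resting and between 1724 and 1982 CPM in activated libraries. Of these *Ikzf2*, which encodes Helios, and *Tnfrsf18*, which encodes GITR, were called higher (log2 fold changes 1.59 and 1.07) and *Foxp3* lower. The part of these cells in the results was not tested.

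**Figure D3:**
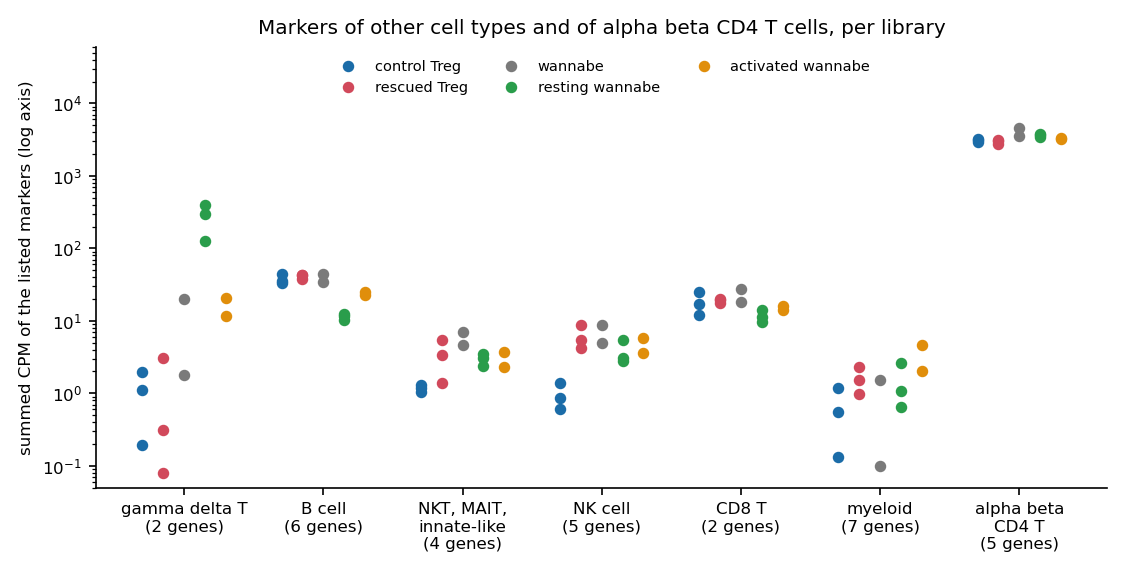
Summed CPM (log axis) of the listed markers of each cell type in every library, by group, with *Blk* and *Cd163l1* left out of the γδ T cell and B cell lists. The γδ T cell markers are between 128 and 391 CPM in resting and between 11.8 and 20.6 CPM in activated “wannabes” of the female experiment.

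Other genes of the pathway were read from lists by role. Of 8 transcription factors, 3 were lower and 1 higher in activated “wannabes”, where 11.2% of all genes tested were lower and 11.3% higher. *Maf*, a factor that acts in several helper T cell programs, *Irf4*, an early factor of T cell activation, and *Runx1*, a T cell lineage factor, had log2 fold changes of -1.11, -1.02 and -0.47. *Batf*, an AP-1 factor needed for Th17 cells, rose by 0.49 on the log2 scale, and *Stat3*, *Ahr*, *Hif1a* and *Nfkbiz* did not pass.

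Of 8 products and surface genes, 6 were lower and none higher in activated “wannabes”, and their median log2 fold change was -2.83, beside 11.2% of all genes lower, 11.3% higher and a median of -0.01. *Ccl20*, the ligand of CCR6, had 7937 ± 3718 (SD, n = 3) normalized counts in resting and 423 ± 110 (SD, n = 2) in activated libraries, a log2 fold change of -4.23 (SE 0.46, edgeR adjusted p = 0.00188). *Il17re*, a receptor subunit for IL-17C, fell by 3.84 on the log2 scale, and *Il21*, a cytokine of Th17 and follicular helper T cells, by 2.73. The membrane proteins *Tmem176a* and *Tmem176b* and the leukotriene receptor *Ltb4r1* had log2 fold changes of -3.16, -2.93 and -1.95. *Cxcr6* did not pass (log2 fold change -0.08, edgeR adjusted p = 0.888), and neither did *Csf2*, a growth factor for myeloid cells (log2 fold change 2.20, edgeR adjusted p = 0.134).

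Receptors and signalling genes had calls in both directions. Of 12, 3 were lower (*Il18r1*, *Tgfbr1* and *Tgfbr2*, with log2 fold changes of -1.05, -0.74 and -0.84), 2 were higher (*Jak2* at 0.96 and *Socs3* at 0.39), and 7 were not called. *Il18r1* is the receptor for IL-18, *Tgfbr1* and *Tgfbr2* form the TGF-β receptor, *Jak2* is a kinase of the IL-23 receptor and *Socs3* an inhibitor of STAT3 signalling. The median of this list was 0.05 on the log2 scale, and 11.2% of all genes were lower and 11.3% higher. Of 6 genes through which cells respond to IL-17 and IL-22, 4 could be tested, and only *Il17rc* was lower (log2 fold change -2.26, edgeR adjusted p = 0.0446), at 43.7 ± 24.1 (SD, n = 3) and 9.03 ± 2.08 (SD, n = 2) normalized counts.

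**Figure D4:**
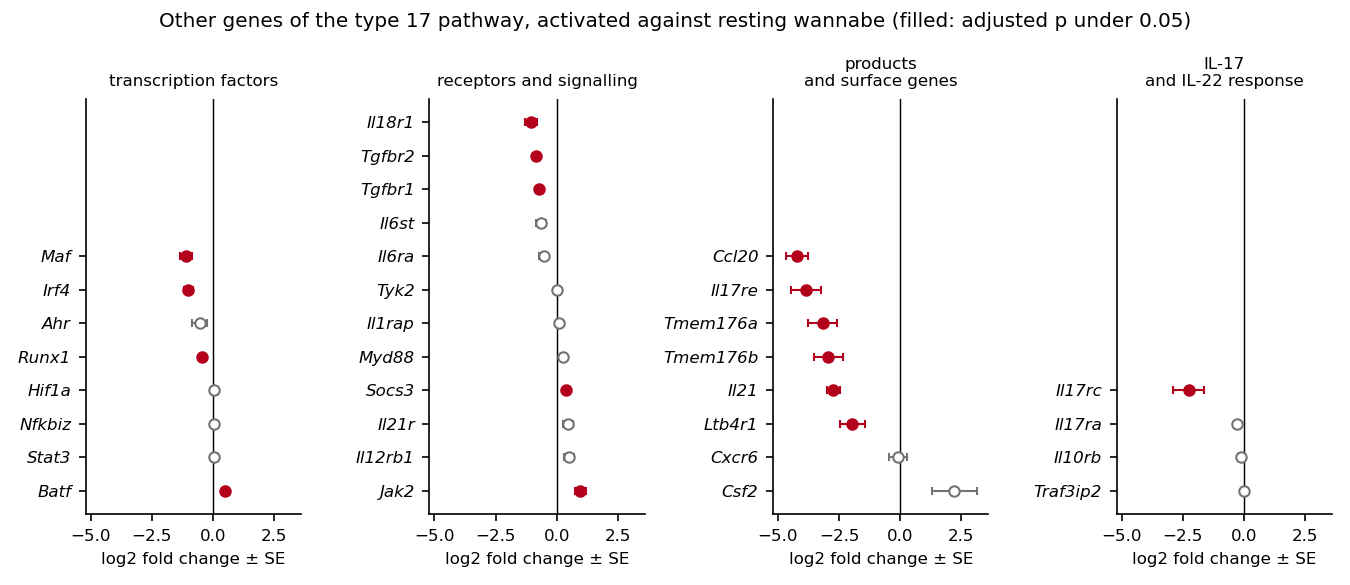
Log2 fold change of activated against resting “wannabes” (x axis, with SE from edgeR) for 32 other genes of the type 17 pathway that could be tested, in 4 lists by role. Filled points have an adjusted p under 0.05; *Maf* at -1.11 and *Ccl20* at -4.23 are the lowest of their lists, while *Stat3*, *Hif1a* and *Tyk2* lie near 0.

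In the male libraries the cytokines were nearly absent. *Il17f* had at most 1 count in any of the 8 libraries. *Il22* had 13 counts in “wannabe” replicate 1 and at most 1 in any other library. Its copy *Iltifb* had between 23 and 28 counts in “wannabe”, at most 6 in control Treg and at most 2 in rescued Treg libraries. Neither comparison of *Iltifb* with “wannabes” passed (edgeR adjusted p = 0.178 for rescued and 0.287 for control Treg cells). *Il17a* had 0, 12 and 20 counts in control Treg, 13, 0 and 0 in rescued Treg and 65 and 0 in “wannabe” libraries, with no order between the groups. The upper limit that a count of 0 allows, 3 counts, covers counting error only. *Il23r* was similar, with 21, 32 and 7 counts in control Treg, 3, 1 and 39 in rescued Treg and 73 and 0 in “wannabe” libraries. Neither *Il17a* nor *Il23r* passed in any of the 3 comparisons (edgeR adjusted p between 0.474 and 0.865 for *Il17a* and between 0.690 and 0.935 for *Il23r*).

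The male “wannabe” libraries differed from each other. Replicate 1 held all of their *Il17a*, *Il23r* and *Il22* counts, while both replicates held counts of *Iltifb*. *5830411N06Rik* had 694 counts in replicate 1 and 54 in replicate 2, while *Cd163l1* had 2 and 24. Summed γδ T cell markers other than *Blk* and *Cd163l1* were at 19.9 and 1.81 CPM in these libraries, between 0.195 and 1.96 CPM in control and between 0.0790 and 3.11 CPM in rescued Treg libraries. Summed NK cell markers were between 0.612 and 1.38 CPM in control and between 4.25 and 8.89 CPM in rescued Treg libraries, without overlap, and at 4.87 and 8.77 CPM in “wannabe” libraries, with *Klra8* at 0 in all 8. None of the 4 NK cell genes tested passed between the Treg groups. All 4 had an unadjusted edgeR p under 0.05, as did 2403 of all 14925 genes tested. The part of NK cells in the results was not tested.

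*Ccr6* was the type 17 gene that separated rescued from control Treg cells. It had 2579, 2645 and 3177 normalized counts in control Treg, 246, 582 and 588 in rescued Treg and 709 and 669 in “wannabe” libraries. Control Treg libraries lay above all others, and the 3 rescued libraries lay below the “wannabes”, replicate 1 furthest. From control to rescued Treg cells the log2 fold change was -2.57 (SE 0.31, edgeR adjusted p = 0.00289), and *Ccr6* was the only gene of the 7 called in this comparison, in which 0.864% of all genes were lower and 1.43% higher. Against “wannabes”, control Treg cells were higher by 2.02 on the log2 scale (SE 0.36, edgeR adjusted p = 0.00392). Rescued Treg cells did not differ from “wannabes” past the threshold (log2 fold change -0.55, SE 0.33, edgeR adjusted p = 0.310).

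*Rora* was higher in both Treg groups than in “wannabes”. It had 5973, 5111 and 5930.4 normalized counts in control Treg, 6054, 5777 and 8345 in rescued Treg and 2462 and 2673 in “wannabe” libraries. Both Treg groups lay above the “wannabes” without overlap, and they overlapped with each other. The log2 fold change against “wannabes” was 1.39 in rescued (SE 0.20, edgeR adjusted p = 0.00104) and 1.14 in control Treg cells (SE 0.20, edgeR adjusted p = 0.00375). Between rescued and control Treg cells it was 0.25 (SE 0.17, edgeR adjusted p = 0.552). An antisense gene, *Gm15511*, overlaps exons of *Rora*, and whether counting used strand is not given in the sources used here.

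*Il1r1* ran the other way, being higher in “wannabes” than in both Treg groups. It had 9.66, 58.4 and 61.3 normalized counts in control Treg, 47.2, 70.0 and 41.3 in rescued Treg and 631 and 321 in “wannabe” libraries. The log2 fold change against “wannabes” was -3.46 in control (SE 0.71, edgeR adjusted p = 0.00815) and -3.17 in rescued Treg cells (SE 0.71, edgeR adjusted p = 0.0122). Without “wannabe” replicate 1 these adjusted p-values were 0.0594 and 0.0914. The 2 comparisons share the “wannabe” libraries and are not independent.

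*Blk* and *Cd163l1* were low in all male libraries. *Blk* had 47, 16 and 2 counts in control Treg, 12, 32 and 84 in rescued Treg and 45 and 21 in “wannabe” libraries. *Cd163l1* had 0, 0 and 1 counts in control Treg, at or under the floor, 21, 0 and 2 in rescued Treg and 2 and 24 in “wannabe” libraries. Neither passed in any comparison. In total 1 of 7 genes was higher and 1 lower in rescued Treg cells than in “wannabes”, where 10.0% of all genes were higher and 4.06% lower, and 2 of 7 were higher and 1 lower in control Treg cells than in “wannabes”, where 9.92% were higher and 6.27% lower. With 7 genes, 1 or 2 calls are no result about the list beside those shares. Per length, *Ccr6* (36.8 ± 4.31 CPM per kilobase, SD, n = 3) lay above *Rora* (13.2 ± 1.13) in control Treg cells and *Rora* (15.7 ± 3.29, SD, n = 3) above *Ccr6* (6.20 ± 2.57) in rescued ones, in both cases without overlap. “Wannabes” had *Ccr6* first at 9.05 ± 0.368 (SD, n = 2), *Rora* at 5.99 ± 0.349 and *Il1r1* at 2.28 ± 1.05 CPM per kilobase, also without overlap between *Ccr6*, *Rora* and *Il1r1*. All other levels were under 1 CPM per kilobase, and most of their neighbours in the order overlapped.

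**Figure D5:**
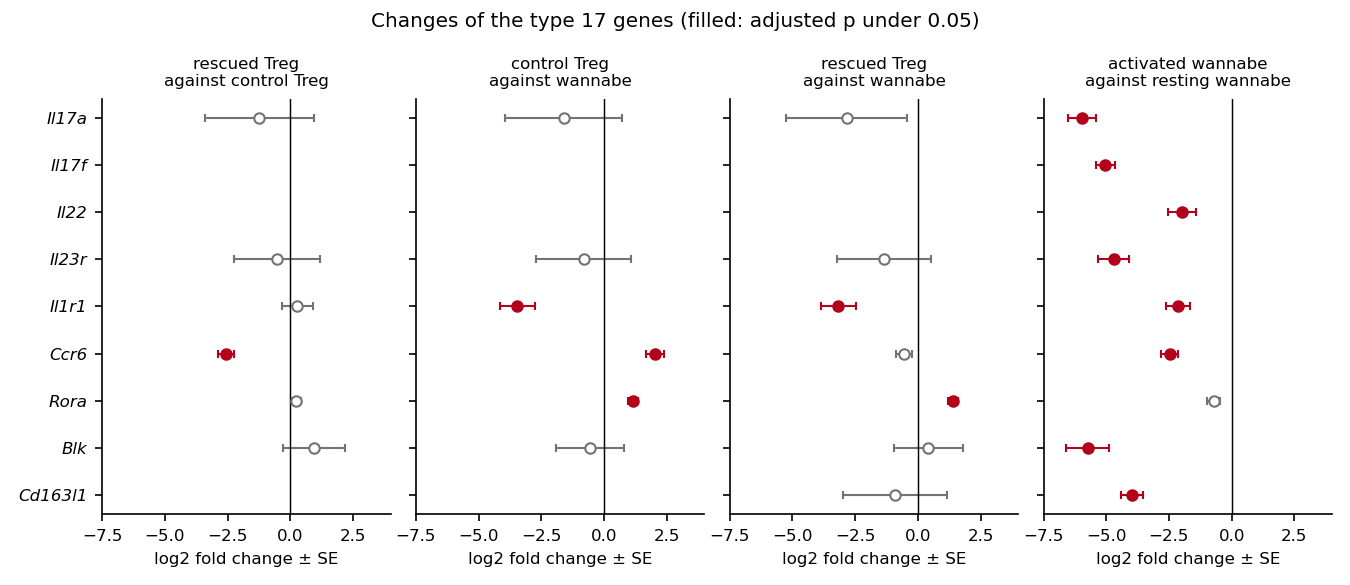
Log2 fold change (x axis, with SE from edgeR) of the type 17 genes in the 4 comparisons, which in the 3 male panels share libraries. Filled points have an adjusted p under 0.05, and genes that were not tested or had at most 3 counts in every library of a group are left out; the called points are *Ccr6* at -2.57 between rescued and control Treg cells, 3 genes against “wannabes” in control and 2 in rescued Treg cells, and 8 genes between activated and resting “wannabes”.

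The pathway lists gave few calls between the Treg groups and more against “wannabes”. Rescued Treg cells differed from “wannabes” in 5 of 8 transcription factors, 5 of 12 receptors and signalling genes, 4 of 7 products and surface genes and 3 of 4 response genes, in both directions, beside 10.0% of all genes higher and 4.06% lower. Control Treg cells gave 5 of 8, 5 of 12, 3 of 7 and 3 of 4, beside 9.92% higher and 6.27% lower, and the “wannabe” libraries are shared. From control to rescued Treg cells, *Ahr*, the aryl hydrocarbon receptor, and *Hif1a*, the hypoxia factor, rose by 1.22 and 0.88 on the log2 scale among 8 transcription factors. *Cxcr6* and *Ltb4r1* rose by 1.65 and 2.23 among 7 products and surface genes tested, together with *Il21*, which had at most 5 counts in control Treg libraries and between 23 and 133 in rescued ones. Summed NK cell markers were higher in the same rescued libraries, between 4.25 and 8.89 against between 0.612 and 1.38 CPM. The part of NK cells in these changes was not tested. *Il6st*, the shared IL-6 receptor subunit, was the only gene called of the 12 receptors and signalling genes, with a log2 fold change of -0.74. In that comparison 1.43% of all genes were higher and 0.864% lower. Against “wannabes”, *Hif1a*, *Nfkbiz* and *Runx1* were higher and *Irf4* lower in both Treg groups, *Ahr* was also higher in rescued and *Batf* lower in control Treg cells. *Il6ra*, the IL-6 receptor, was 1.26 higher on the log2 scale in rescued and 1.59 higher in control Treg cells than in “wannabes”, and *Tgfbr1* was 0.82 and 1.08 higher. *Il21*, *Tmem176b* and *Cxcr6* were lower in both Treg groups, with *Tmem176b* at log2 fold changes of -1.13 in rescued and -1.16 in control Treg cells. *Myd88*, an adaptor of the IL-1 receptor, was also lower in both, *Jak2* was lower and *Socs3* and *Ltb4r1* higher in rescued, and *Il6st* and *Tgfbr2* higher in control Treg cells. Of the genes that respond to IL-17 and IL-22, none was called between the Treg groups, and against “wannabes” *Il17ra* and *Il10rb* were higher and *Traf3ip2* lower in both.

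Both experiments set cells of inflamed mice against cells of healthy mice, and the difference between their changes was tested as 1 contrast over all 13 libraries. *Blk* alone of the 9 genes passed, with activated against resting “wannabes” minus rescued against control Treg cells at -6.74 on the log2 scale (SE 1.39, edgeR adjusted p = 0.0294). In this contrast 0.803% of all genes were lower and 0.730% higher. *Il17a* and *Il23r* differed by -4.77 (SE 1.95) and -4.24 (SE 1.63) without passing (edgeR adjusted p = 0.284 and 0.252). *Cd163l1* and *Il17f* also did not pass (edgeR adjusted p = 0.0604 and 0.110), and their fitted differences are not given, since all control Treg libraries had at most 1 count of either. For *Ccr6*, which fell in both experiments, the difference was 0.09 (SE 0.46, edgeR adjusted p = 0.977). The call on *Blk* rests on 2 to 84 counts in the male Treg libraries, and it was kept in 10 of 17 other settings. Over these settings the difference ranged from -8.12 without control Treg replicate 1 to -6.00 without rescued Treg replicate 3.

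The genes whose pattern was most like those of *Il17a*, *Ccr6* and *Rora* were found from log2 CPM centred within each experiment, over 13 libraries and about 10240 genes with at least 100 normalized counts on average in both experiments. Libraries of a group share its condition, so these correlations are descriptions. For *Il17a* the closest were *Gnpda2* (Pearson r = 0.849), *Pdlim5* (0.843), *Acpp* (0.836), *Alg11* (0.830) and *Tmem176a* (0.827). In the same order, r was 0.567, 0.585, 0.627, 0.897 and 0.575 over male libraries and 0.995, 0.988, 0.997, 0.814 and 0.962 over female ones. *Il17a* itself had between 0 and 65 counts in the male libraries, so its male correlations and this ranking rest in part on values near the floor. For *Ccr6* they were *Mga* (0.958), *Lmo4* (0.943), *Pck2* (0.942), *Scnm1* (0.938) and *St13* (0.927). For *Rora* they were *Fam129a* (0.965), its own antisense gene *Gm15511* (0.956), *Osbpl3* (0.947), *Art2a-ps* (0.938) and *Cpm* (0.931).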

How the data were processed

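The authors used STAR 2.7.3a for alignment to GRCm38, a local realignment step, read counting per gene in R and DESeq2 1.28.1 for their comparisons; the gene annotation and the strand setting are not given in the sources used here. The deposited values are raw counts, whole numbers per gene and library. Columns were matched to libraries by the reporter or genotype in their names and the replicate number. Each table lists 24421 entries, of which 4 have no gene name (at most 0.00841% of counts) and were left out. Positions and exon lengths come from GENCODE M21.

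Counts were normalized with TMM and tested in R 4.3.3 with edgeR 4.0.16: filterByExpr on the groups, quasi-likelihood F test, two-sided, Benjamini-Hochberg adjustment over all genes tested, threshold 0.05. One fit held the 8 male libraries (14925 genes), another the 5 female libraries (13166), and the difference of changes was fitted over all 13 (15201). The common biological coefficient of variation was 0.510, 0.171 and 0.405. The tests were checked on simulated data with 200 changed genes per comparison, at a log2 fold change of 2 in size. There edgeR recovered between 135 and 196 of them with between 5 and 12 false calls. DESeq2 recovered between 151 and 200 with between 39 and 54 false calls. Alternatives were DESeq2 1.42.0, its size factors in edgeR, no filter, a replicate block, only the 2 groups compared and leaving out each library. Correlations used log2 CPM with a prior count of 2.

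The genes and lists were chosen with earlier results of these data known. Named are the 9 genes, the pathway genes past the threshold, *Foxp3* and *Thy1*, and the 5 genes most like *Il17a*, *Ccr6* and *Rora*; *Iltifb*, *5830411N06Rik*, *Sox13*, *Cd4* and *Cd3e* and other genes named beside them were added for copies, markers and spread after their values were seen. The study calls its libraries biological replicates, and every replicate pair differed by more than counting noise (chi-square over its degrees of freedom between 13.2 and 144). Reads carry no molecular identifiers, so the floor of 3 counts covers counting error only. Single-cell libraries were not used here, and some genes of the lists are not reported here.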

Additional observations from a re-analysis of the deposited data

Results flagged for a closer look

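The change of *Blk* differed between the experiments by the test of the difference itself: activated against resting “wannabes” minus rescued against control Treg cells was -6.74 on the log2 scale (SE 1.39, edgeR adjusted p = 0.0294). In activated “wannabes” both libraries lay below all 3 resting ones, and rescued and control Treg libraries overlapped. Leaving out any 1 of 7 libraries lost the call, with adjusted p-values up to 0.202, while the difference stayed between -8.12 and -6.00 over all settings. No group holds 4 or more libraries, so single libraries far from their group could not be picked out by a rule.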

How the results depend on the processing

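All alternatives used here were listed with the design. With all libraries kept, the number of the 9 genes called stayed within 1.5 times the reported one except for the difference of changes, where it was 2 with no filter, 2 with the replicate block and 4 with DESeq2, against 1. Over all genes, rescued against control Treg cells gave 343 calls, 612 with no filter, 1195 with DESeq2 and 580 in a fit of only these 2 groups. Rescued Treg cells against “wannabes” gave 2105 and with DESeq2 3316, control Treg cells against “wannabes” 2416 and 3751, and the difference of changes 233 and 792. The cause was not tested.

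With 1 library left out, activated against resting “wannabes” gave between 4 and 8 of the 9 genes and between 751 and 3215 of all genes, the lowest without an activated library. Rescued against control Treg cells gave 1 gene and between 114 and 598 of all genes, rescued Treg cells against “wannabes” between 1 and 2 and between 1570 and 1959, control Treg cells against “wannabes” between 2 and 3 and between 1549 and 2423, and the difference of changes between 0 and 2 and between 44 and 430. A lone library in a group was assumed to vary like the other groups. Log2 fold changes that turned sign when 1 library was left out, none of them called in any of these fits, ranged as follows. Rescued against control Treg cells gave between -3.14 and 0.019 for *Il23r* and between -0.18 and 0.62 for *Il1r1*. Rescued Treg cells against “wannabes” gave between -7.93 and 5.08 for *Il17a*, between -3.95 and 6.74 for *Il23r* and between -0.30 and 0.93 for *Blk*. Control Treg cells against “wannabes” gave between -2.65 and 6.32 for *Il17a*, between -1.86 and 7.27 for *Il23r* and between -1.96 and 0.00062 for *Blk*. In the comparisons with “wannabes” the positive values of *Il17a* and *Il23r* arise without “wannabe” replicate 1, since replicate 2 is at 0 counts and the fitted value then rests on the prior. The difference of changes gave between -5.59 and 0.30 for *Il17a* and between -0.21 and 0.47 for *Ccr6*.

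The replicate numbers did not pair the libraries: same-numbered libraries had correlated deviations between -0.0292 and 0.0845, and 3 of 13 correlated best with their own number. The replicate block turned the sign of *Il17a* (2.47) and *Il23r* (0.020) in control Treg cells against “wannabes” and of the difference for *Ccr6* (-0.0031), none of which was called in either fit. In activated against resting “wannabes” it called *Rora* (adjusted p = 0.00229), as DESeq2 did (0.0263), and lost *Il22* (0.105), as no filter did (0.0628). In the difference of changes it called *Rora* (0.0346). Group levels moved by less than 1 SD under other scalings. Depth limits *Il17a*, *Il17f*, *Il22*, *Il23r* and *Cd163l1* in the male libraries, many of which had fewer than 3 counts.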
